A study of Homo sapiens with 8 samples.

Results

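The aminoacyl-tRNA synthetase genes were examined in 143BTK- cells, a human osteosarcoma cell line that lacks thymidine kinase, after transfection with synthetic miR-101-3p, a microRNA. Members were chosen by gene symbol, as every row of the count table named for a synthetase of a single amino acid, together with EPRS, EARS2, FARSA, FARSB, QARS and PARS2. This gave 35 of the 15982 genes in the table: 17 whose enzymes work in the cytosol, 16 whose enzymes work in mitochondria, and GARS and KARS, which supply both compartments from the same gene. The valine enzymes VARS and VARS2 had no row in the count table and could not be analysed.

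Both groups were cultures of the same line in medium without glucose, with 10 mM galactose, dialysed serum and uridine. The miR-101 group received 80 pmol of the miR-101-3p mimic and the control group 80 pmol of the manufacturer's negative control mimic. A second transfection followed at 48 h in both groups, and cells were harvested at 120 h. Each group had 4 libraries of total RNA depleted of ribosomal RNA, numbered 1 to 4, from what the labels describe as separate transfection experiments. A transfected mimic adds the microRNA from outside the cell, and all libraries come from a single cell line.

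Aminoacyl-tRNA synthetases join each amino acid to its matching transfer RNA, the step that fixes the meaning of the genetic code. Mitochondria translate their own small set of messages, with their own transfer RNAs, but their synthetases are encoded in the nucleus and imported. Most amino acids therefore have a pair of genes, the mitochondrial copy carrying the suffix 2. Glutamine is an exception: mitochondria charge its transfer RNA with glutamate through EARS2, and an amidotransferase converts the product. When transfer RNAs stay uncharged, the kinase GCN2 (EIF2AK4) raises translation of the transcription factor ATF4, which binds C/EBP-ATF elements in amino acid response genes, many cytosolic synthetase genes among them. Several cytosolic enzymes sit together in the multisynthetase complex, held by the scaffold proteins AIMP1, AIMP2 and EEF1E1.

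The sequences that bear on the comparison are the seed of the microRNA and its matches in the 3′ untranslated regions (UTRs) of these genes. The mature miR-101-3p (RefSeq, GRCh38.p14, chr9:4850345-4850365, plus strand) is given 5′ to 3′ with its seed, bases 2 to 8, in capitals.
hsa-miR-101-3p: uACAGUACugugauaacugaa
A match to the seed reads GTACTGT in the message, GTACTGTA when an A follows (8mer), and TACTGTA when base 8 is unpaired and the A is present (7mer-A1). In the longest GENCODE 29 3′ UTR of each gene, 3 of the 35 members held a match, and all 3 were of the 7mer-A1 kind. They are shown because they are the only matches in the family, with the matched letters in capitals.
FARSB, from position 752 of a UTR of 1335 bases: gccatacatgtTACTGTAatcagtcagtt
HARS2, from position 375 of 766 bases: acttagccttcTACTGTAgctacggaacc
WARS2, from position 794 of 2144 bases: tctggagtactTACTGTAacagatgcaca
The 8mer of EZH2, which encodes a histone methyltransferase described as a target of this microRNA, is shown for comparison.
EZH2, from position 114 of 262 bases: gaatttgcaaaGTACTGTAagaataattta
No member held an 8mer or the 7-base seed match GTACTGT. Among the 12188 genes of the table with a 3′ UTR, 4.60% held an 8mer, 8.15% the 7-base seed match as their best site and 11.1% the 7mer-A1 as their best site. A match of letters is a description and not a site shown to be bound.

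EZH2 served as a check that the mimic acted in these libraries. Values are CPM, counts scaled to a fixed library size, with TMM factors that adjust for differences in library composition. EZH2 was at 25.9, 26.7, 30.3 and 29.3 CPM in miR-101 replicates 1 to 4 and at 46.0, 46.7, 51.3 and 38.9 CPM in control replicates 1 to 4. All miR-101 libraries lay below all control libraries, with a log2 fold change, miR-101 over control, of -0.70 ± 0.114 (SE; edgeR adjusted p = 0.00561). The labels were thus not contradicted by this gene.

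Total counts ran from 17603054 to 20160267 per library. Of the 8 osteoblast and osteosarcoma markers listed, RUNX2 lay at 9.22 to 31.4 CPM and SPARC at 294.9 to 1442 CPM over the 8 libraries. COL1A1 lay at 3.96 to 17.9 CPM and TWIST1 at 21.3 to 32.3 CPM. COL1A2, ALPL, SP7 and BGLAP had no row in the count table, so their levels are not known. Of markers of other cell types, EPCAM lay at 5.11 to 17.0 CPM, KRT18 at 229.3 to 472.7 CPM and PECAM1 at 0.86 to 3.96 CPM. CDH1, PTPRC and CDH5 were also looked for and had no row. Libraries 1 and 2 of each group were closer to each other than any other pair: the SD over genes of their log2 difference was 0.173 in the miR-101 group and 0.186 in the control group, against 0.265 to 0.504 for the other pairs. Calls in the lists around the family are therefore also given with replicates 1 and 2 of each group summed to 1 library. No such value is given for EZH2. Less RNA of a gene per cell and fewer cells that contain it cannot be told apart in bulk RNA.

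Synthetase mRNA levels spanned a wide range, with cytosolic genes mostly above mitochondrial ones. Levels are compared between genes as control CPM per kilobase of exonic sequence. RARS, which charges arginine transfer RNA, was highest at 173.1 ± 5.73 (SD, n = 4), followed by TARS, for threonine, at 139.9 ± 13.5 and NARS, for asparagine, at 84.8 ± 5.82. KARS, for lysine, came next at 68.5 ± 6.75. RARS and TARS were separated by more than their SDs.

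The lowest per-length counts belonged to CARS, for cysteine, at 0.326 ± 0.076 CPM per kilobase, to SARS2, for mitochondrial serine, at 1.01 ± 0.201, and to FARS2, for mitochondrial phenylalanine, at 2.25 ± 0.168. The counting tool and annotation are not stated and CARS has 2 named pseudogenes, so its low count may not be its expression level; how much of the gene was counted was not tested. The median control level was 35.6 CPM per kilobase over the 17 cytosolic genes and 9.11 over the 16 mitochondrial genes. The mitochondrial gene with the most mRNA per length was IARS2, for isoleucine, at 36.9 ± 2.10, close to the cytosolic median. With the length of the principal transcript in place of all exonic sequence, the medians were 60.7 and 12.7, the first 2 genes and the last 2 kept their places, KARS (138.8) passed NARS (111.9), and PARS2 (3.53) took the third-lowest place from FARS2 (6.42).

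**Figure D1:**
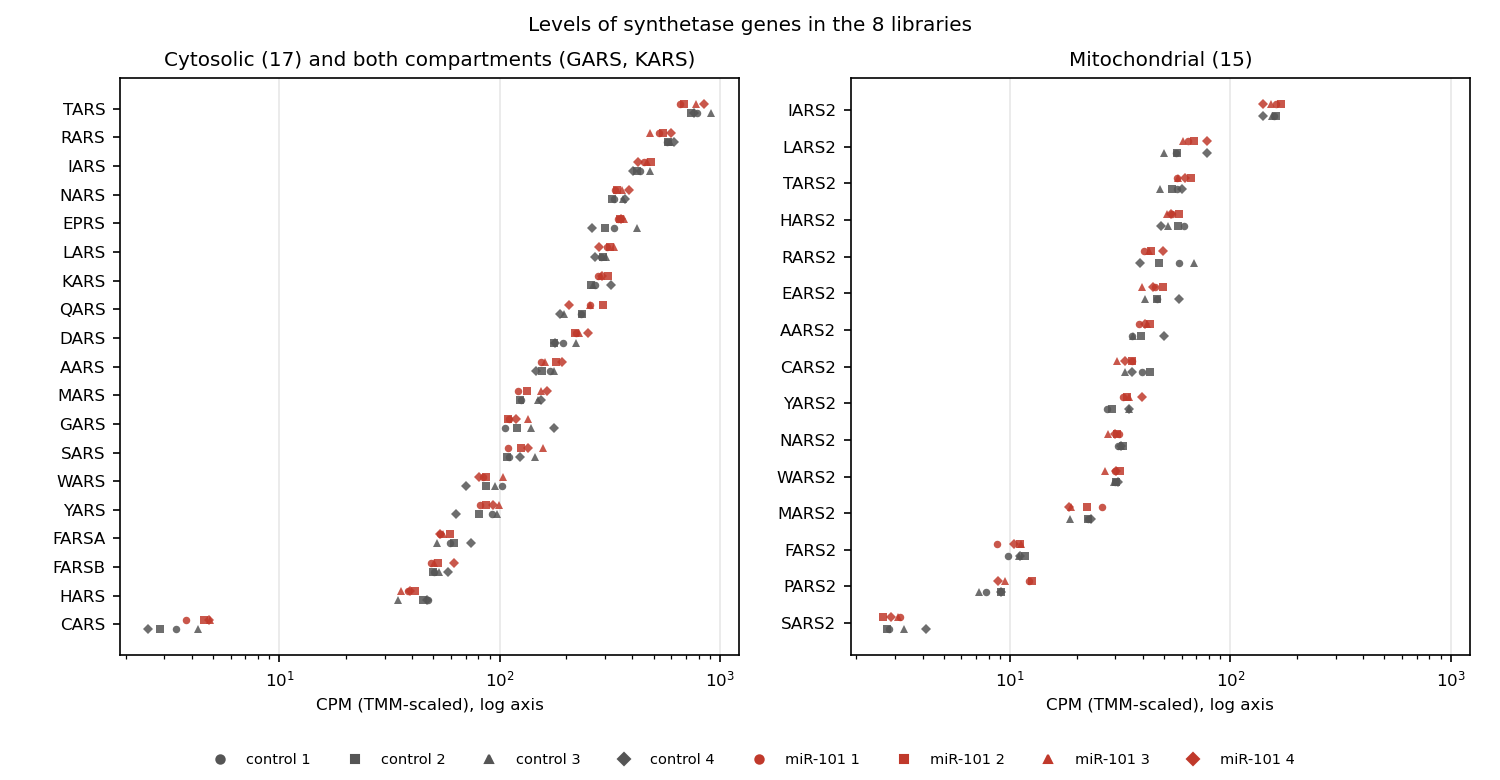
Level of 34 of the 35 synthetase genes in all 8 libraries, in TMM-scaled CPM on a log axis; red symbols are miR-101 libraries, grey symbols control libraries, and the shape gives the replicate number. Within every gene the highest library was 1.16 to 1.91 times the lowest, and red and grey symbols overlap in each row.

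No synthetase gene passed the test between miR-101 and control libraries. By edgeR's quasi-likelihood test, adjusted with Benjamini-Hochberg over the 15905 genes tested, 0 of the 35 members were called at an adjusted p under 0.05, all 35 being tested; the background share called was 6.62% of all genes (3.3% higher and 3.32% lower). Unadjusted p-values fell under 0.05 for 3 members, DARS, CARS and PARS2, each with a higher mean in the miR-101 group, against 22.3% of all genes. DESeq2 and limma-voom each called 0 members, beside 10.7% and 6.66% of all genes, and each had 3 members at an unadjusted p under 0.05. The 2 groups of CPM values did not overlap for 0 of 35 members and for 15.1% of all genes tested.

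The intervals of the main fit, which took the 8 libraries as independent, limit how large a change could have been missed. Such limits are not given for the replicate block or for replicates 1 and 2 summed. The 95% interval of the log2 fold change, taken gene by gene without adjustment for the number of genes, lay inside a 2-fold change in either direction for 35 of 35 members and for 80.8% of all genes. It lay inside a 1.5-fold change for 32 of 35 members and for 46.8% of all genes. CARS, PARS2 and RARS2 were the exceptions to the narrower bound. The synthetase genes were more abundant than most of the table, with a median of 64.3 CPM against 15.7 CPM, and the median SE of their log2 fold changes was 0.119 against 0.171.

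**Figure D2:**
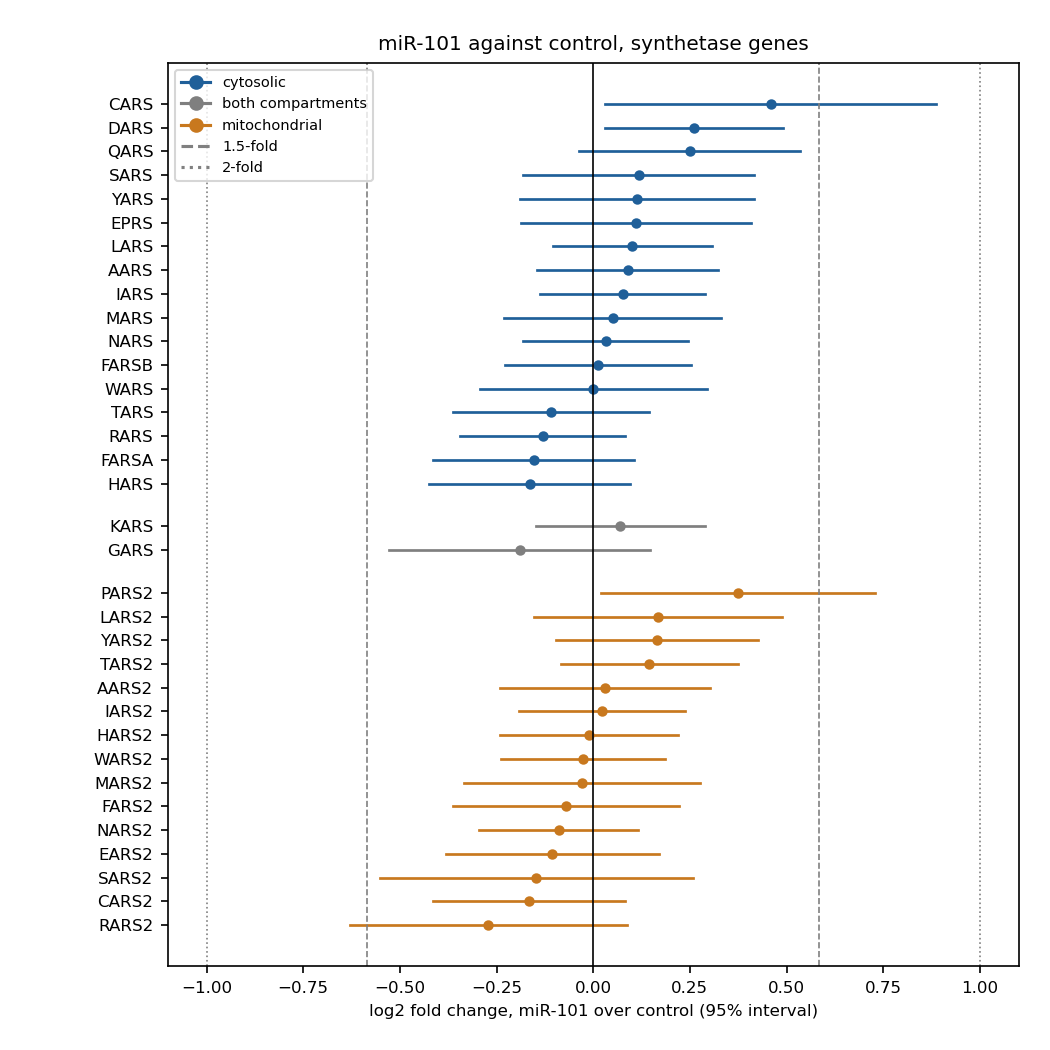
Log2 fold change of 34 synthetase genes, miR-101 over control, each with its 95% interval; dashed lines mark 1.5-fold and dotted lines 2-fold changes. Intervals of 3 genes, CARS, DARS and PARS2, lie wholly above 0, and no adjusted p was under 0.172.

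Log2 fold changes of the members ran from -0.27 (RARS2) to 0.46 (CARS), with 20 positive and 15 negative values. Their median was 0.02, beside -0.0051 over all genes. The median size regardless of sign was 0.11 against 0.204 for all genes, and 0% of members against 16.7% of all genes had a size above 0.5. The value was positive for 13 of 17 cytosolic genes, with a median of 0.08, and for 6 of 16 mitochondrial genes, with a median of -0.03. Neither median was tested, since the genes were chosen as a list. Single libraries moved both: without miR-101 replicate 3 the medians were 0.035 and 0.0095, and without control replicate 3 they were 0.12 and -0.056, so the difference in sign between the compartments rested on which libraries were kept. The cytosolic median was also 0.037 without miR-101 replicate 4 and 0.045 without control replicate 4, and the mitochondrial one was -0.053 without miR-101 replicate 2, -0.019 without control replicate 2 and -0.0092 without control replicate 4.

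DARS, the cytosolic aspartate enzyme and a member of the multisynthetase complex (chr2:135906677-135986100, GRCh38), had the smallest p of the family. It was at 221.6, 220.8, 228.2 and 250.7 CPM in miR-101 replicates 1 to 4 and at 193.9, 176.3, 221.5 and 177.7 CPM in control replicates 1 to 4. Control replicate 3 reached the level of the lower miR-101 libraries, so the groups overlapped, although the miR-101 library was the higher in 4 of 4 numbered pairs. The means were 230.3 ± 13.97 and 192.3 ± 21.0 CPM (SD, n = 4), and the log2 fold change was 0.26 ± 0.105 (SE; 95% interval 0.03 to 0.49; edgeR adjusted p = 0.172). DARS shares 305 exonic bases with the antisense gene DARS-AS1, and its value is uncertain to the extent that reads of that gene were counted with it.

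CARS (chr11:3000922-3057613) was a low gene with the largest log2 fold change. Its levels were 3.76, 4.55, 4.85 and 4.77 CPM with miR-101 and 3.41, 2.87, 4.28 and 2.53 CPM in controls, again higher in 4 of 4 pairs and again overlapping through control replicate 3. The log2 fold change was 0.46 ± 0.194 (95% interval 0.03 to 0.89; edgeR adjusted p = 0.193). At such a level the wide interval leaves room for almost no difference and for a difference near 1.85-fold.

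PARS2 (chr1:54756898-54764514) charges proline transfer RNA in mitochondria. It was at 12.2, 12.6, 9.45 and 8.83 CPM with miR-101 and at 7.80, 9.09, 7.20 and 9.08 CPM in controls. Replicates 1 and 2 of the miR-101 group stood above every control library, replicate 3 was slightly above them and replicate 4 lay within their range. The log2 fold change was 0.37 ± 0.160 (95% interval 0.02 to 0.73; edgeR adjusted p = 0.199), higher in 3 of 4 pairs.

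QARS (chr3:49095932-49105135), the glutamine enzyme of the cytosol, was at 258.1, 294.8, 257.7 and 206.8 CPM with miR-101 and at 235.1, 237.2, 196.1 and 187.7 CPM in controls. Its miR-101 library was higher in 4 of 4 pairs, but miR-101 replicate 4 lay below control replicates 1 and 2. The log2 fold change was 0.25 ± 0.130 (95% interval -0.04 to 0.54; edgeR adjusted p = 0.291). The remaining members with 4 of 4 pairs higher were LARS, at 0.10 ± 0.093, and its mitochondrial counterpart LARS2, at 0.17 ± 0.146, both for leucine. RARS and CARS2 were higher in 0 of 4 pairs.

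The most abundant members moved little. RARS was at 529.8, 552.0, 482.4 and 598.5 CPM with miR-101 and at 576.6, 578.4, 594.3 and 618.9 CPM in controls, a log2 fold change of -0.13 ± 0.097 (95% interval -0.35 to 0.08; edgeR adjusted p = 0.464). TARS was at 661.5, 685.6, 777.0 and 845.6 CPM with miR-101 and at 788.2, 735.2, 911.7 and 765.7 CPM in controls (-0.11 ± 0.115, edgeR adjusted p = 0.626). NARS was at 332.2, 341.0, 359.6 and 385.3 CPM with miR-101 and at 329.3, 323.8, 361.3 and 372.3 CPM in controls. Its log2 fold change was 0.03 ± 0.096 (95% interval -0.18 to 0.24; edgeR adjusted p = 0.883). In all 3 genes the control and miR-101 values overlapped.

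Among the genes with the lowest counts per length, SARS2 was at 3.17, 2.65, 3.08 and 2.87 CPM with miR-101. In controls it was at 2.80, 2.77, 3.29 and 4.16 CPM, where control replicate 4 was the high library. Its log2 fold change was -0.15 ± 0.184 (edgeR adjusted p = 0.681). FARS2 was at 8.69, 11.0, 11.2 and 10.5 CPM with miR-101 and at 9.72, 11.7, 11.0 and 11.1 CPM in controls, a log2 fold change of -0.07 ± 0.132 (edgeR adjusted p = 0.802). RARS2, the mitochondrial arginine enzyme, was not among the lowest in level but had the lowest log2 fold change of the family. Its control libraries themselves ranged widely: 58.3, 47.6, 68.2 and 38.7 CPM against 40.5, 43.6, 42.9 and 49.3 CPM with miR-101. Its log2 fold change was -0.27 ± 0.162 (95% interval -0.63 to 0.09; edgeR adjusted p = 0.359).

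The 2 genes that serve both compartments did not pass the test either. GARS, for glycine, was at 110.6, 109.6, 133.9 and 118.7 CPM with miR-101 and at 105.1, 119.9, 138.1 and 176.4 CPM in controls, where replicate 4 was the high library. Its log2 fold change was -0.19 ± 0.153 (95% interval -0.53 to 0.15). KARS, for lysine, had a log2 fold change of 0.07 ± 0.099 (95% interval -0.15 to 0.29).

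Setting each cytosolic enzyme beside the mitochondrial enzyme for the same amino acid gave 17 pairs, in which EPRS and FARS2 each appear more than once. EPRS joins glutamate and proline activities in a single protein, and the cytosolic phenylalanine enzyme is built from the subunits FARSA and FARSB. The control level per kilobase was higher for the cytosolic gene in 14 of 17 pairs, with a median ratio of 4.02, and in 15 with the principal transcript length. The exceptions were cysteine, where the CARS count, uncertain as said, stood at 0.0900 times CARS2, histidine, where HARS stood at 0.375 times HARS2, and tyrosine, where YARS stood at 0.698 times YARS2. The tyrosine ratio turned to 1.74 with the principal transcript length. HARS and HARS2 are neighbours that share 437 exonic bases, so their separate counts are uncertain. The serine ratio rests on the SARS2 count, which is uncertain as said.

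Log2 fold changes had opposite signs in 9 of the 17 pairs, and the cytosolic value was the higher in 11. Differences, cytosolic minus mitochondrial, ran from -0.26 for proline (EPRS and PARS2) to 0.62 for cysteine. The cysteine pair combined opposite signs with a difference above 0.3. CARS2 was at 35.6, 35.6, 30.6 and 33.4 CPM with miR-101 and at 39.7, 42.9, 33.1 and 35.8 CPM in controls, a log2 fold change of -0.17 ± 0.113 (edgeR adjusted p = 0.423) beside 0.46 for CARS. Differences between the members of a pair were not tested. CARS2 shares 326 exonic bases with ING1, and 11 of the 35 members in all share exonic sequence with another gene of the table.

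**Figure D3:**
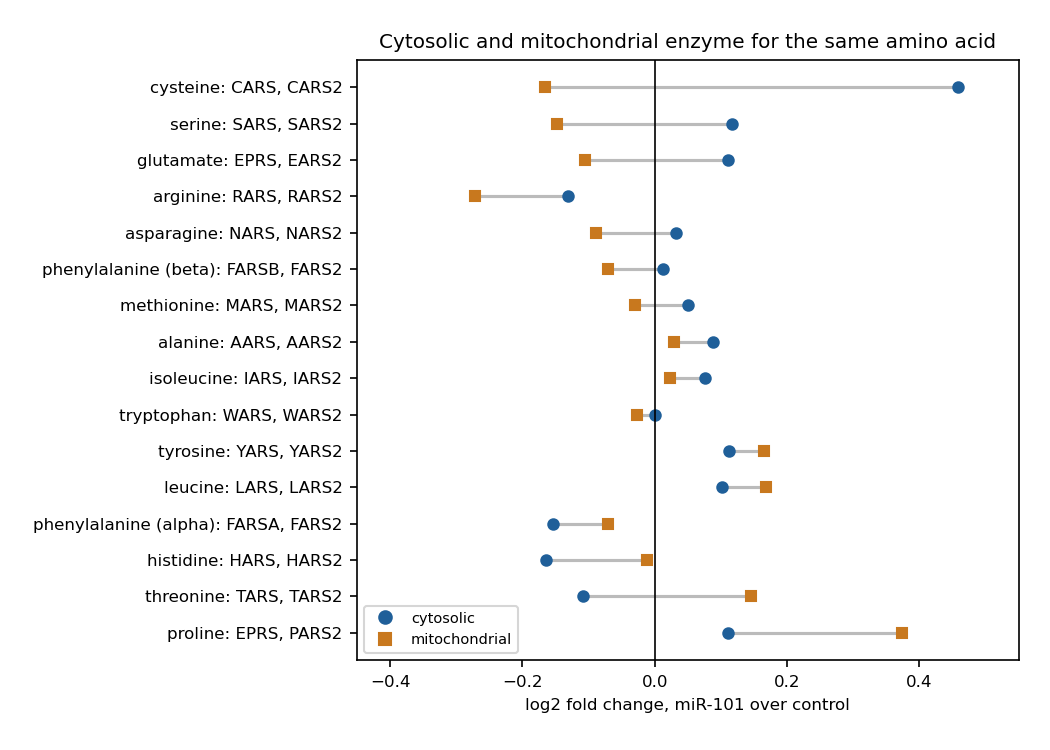
Log2 fold change, miR-101 over control, of the cytosolic (blue circle) and mitochondrial (orange square) synthetase gene in 16 of the pairs, ordered by their difference. The symbols lie on opposite sides of 0 in 8 of 16 rows, and the widest gap is that of cysteine.

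Summed over genes, the cytosolic synthetases made 4021 ± 160.1 CPM with miR-101 and 3951 ± 237.7 CPM in controls (SD, n = 4). The mitochondrial synthetases made 728.4 ± 38.5 and 739.9 ± 25.8 CPM. The mitochondrial share of these counts, with GARS and KARS in the total, was 15.0%, 14.9%, 13.1% and 13.5% in miR-101 replicates 1 to 4 and 14.8%, 15.3%, 13.0% and 15.0% in control replicates 1 to 4. The difference in means, -0.397 percentage points, was smaller than the SD within either group (0.933 and 1.04), and the low libraries, control replicate 3 and miR-101 replicates 3 and 4, came from both groups. The difference stayed negative but ranged from -0.905 without control replicate 3 to -0.0632 without miR-101 replicate 3. It was -0.682 and -0.642 without miR-101 replicates 1 and 2, -0.202 without miR-101 replicate 4, and -0.140 and -0.229 without control replicates 2 and 4.

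Much of the spread of the family lay between libraries of the same group. Control replicate 3 was the highest control library for 9 of 17 cytosolic genes and the lowest for 8 of 16 mitochondrial genes, against 31.9% and 30.6% of all genes in which it was highest and lowest. EPRS shows this: 418.9 CPM in control replicate 3, against 330.1, 301.3 and 262.7 CPM in the other control libraries and 344.2 to 366.8 CPM with miR-101. The coefficient of variation over the 8 libraries had a median of 12.1% for cytosolic and 11.3% for mitochondrial genes, from 4.35% (WARS2) to 22.6% (CARS).

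**Figure D4:**
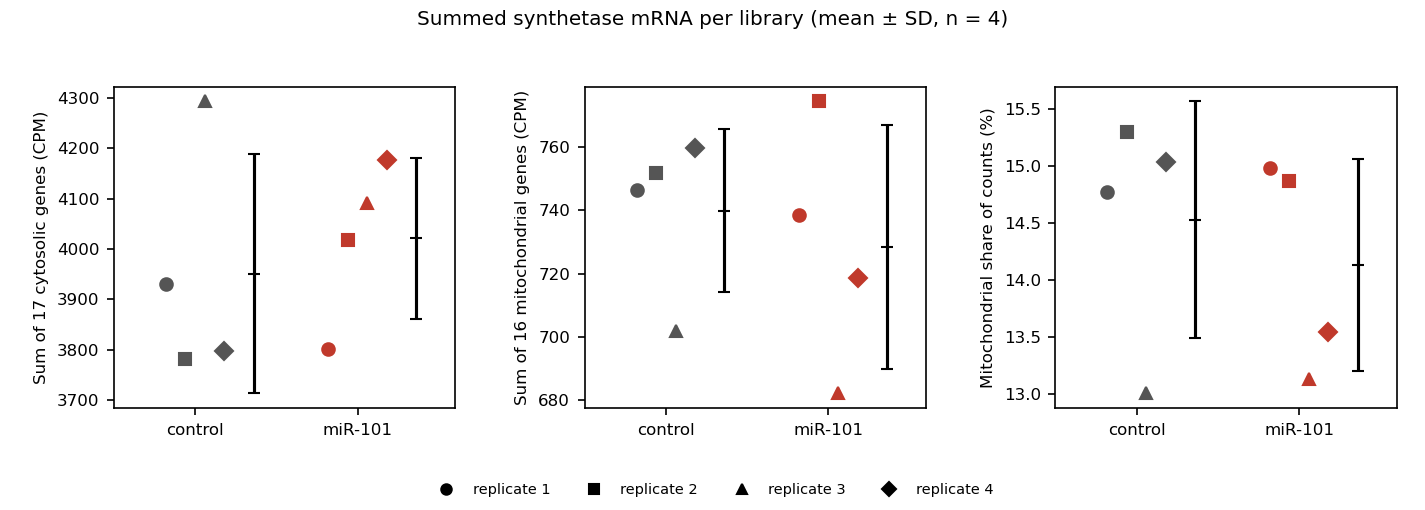
Summed CPM of the 17 cytosolic genes (left), of the 16 mitochondrial genes (middle) and the mitochondrial share of all synthetase counts in percent (right), with a symbol per library and the mean ± SD (n = 4) beside it; the vertical axes do not start at 0. Control replicate 3 has the highest cytosolic sum and the lowest mitochondrial share of the 8 libraries.

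The replicate number bears on which libraries resemble each other, and the calls over the whole table depended on it. When the replicate number entered the model as a block, 0 of 35 members were called, with 4 at an unadjusted p under 0.05, while the background rose to 10.5% of all genes. In replicates 1 and 2 alone, the libraries closest to each other, 9 members were called against a background of 32.4%: DARS, QARS, LARS2, PARS2 and YARS2 higher, and HARS, TARS, CARS2 and RARS2 lower. In replicates 3 and 4 alone 0 members were called (0 at an unadjusted p under 0.05), against 0.0379% of all genes. With replicates 1 and 2 of each group summed to 1 library, 0 members were called (0 at an unadjusted p under 0.05), against a background of 1.09%.

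The 3 members with a 7mer-A1 match showed small differences. FARSB, the beta subunit of the cytosolic phenylalanine enzyme, had a log2 fold change of 0.01 ± 0.109 (95% interval -0.23 to 0.25). HARS2, for mitochondrial histidine, was at -0.01 ± 0.105 (95% interval -0.24 to 0.22). WARS2, for mitochondrial tryptophan, lay between 27.1 and 31.4 CPM in all 8 libraries, with a log2 fold change of -0.03 ± 0.096 (95% interval -0.24 to 0.18). EZH2, with an 8mer and a 7-base match in its UTR, differed by -0.70 in the same fit.

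Grouped by place in the cell's machinery, the 8 synthetases of the multisynthetase complex (EPRS, IARS, LARS, MARS, QARS, RARS, KARS and DARS) had 7 positive and 1 negative log2 fold change, with a median of 0.09. The other 11 genes of the cytosol or of both compartments had 7 positive and 4 negative values and a median of 0.01. This grouping was made after values had been seen and was not tested. Control levels within the complex ran from 19.6 (MARS) to 173.1 (RARS) CPM per kilobase. The scaffold genes AIMP1, at 0.12 ± 0.100 (edgeR adjusted p = 0.513), AIMP2, at -0.11 ± 0.135 (edgeR adjusted p = 0.689), and EEF1E1, at 0.03 ± 0.225, were not called.

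Promoters were searched on both strands for the C/EBP-ATF element TGATGNAA, from 250 bases before to 50 after the RefSeq start (GRCh38.p14), where 30 of the 35 members had an entry. The element was present in 6 of 14 cytosolic genes (42.9%), in GARS of the pair serving both compartments, and in 1 of 14 mitochondrial genes, YARS2 (7.14%). Of all 27305 RefSeq gene promoters of that length, 4.46% held it, and 1.08% held the form TGATGCAA. The matches are printed because all 6 cytosolic ones had the same 8 letters, shown in capitals on the strand where they read.
AARS, chr16:70289675-70289704, plus strand: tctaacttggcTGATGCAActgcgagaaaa
CARS, chr11:3057407-3057436, plus strand: ttcctagaatcTGATGCAAccgccgccccg
IARS, chr9:92293692-92293721, plus strand: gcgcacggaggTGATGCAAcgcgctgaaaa
MARS, chr12:57488053-57488082, minus strand: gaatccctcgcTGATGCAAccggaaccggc
NARS, chr18:57621804-57621833, minus strand: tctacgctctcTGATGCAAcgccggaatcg
TARS, chr5:33440956-33440985, minus strand: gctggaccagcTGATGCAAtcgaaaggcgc
GARS, chr7:30594834-30594863, minus strand: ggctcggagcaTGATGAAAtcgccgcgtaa
YARS2, chr12:32756076-32756105, minus strand: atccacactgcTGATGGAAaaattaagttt
The 8 members with the element had 6 positive and 2 negative log2 fold changes, with a median of 0.06, and the 22 without it had 10 positive and 12 negative, with a median of -0.02. The element was chosen after values had been seen, and these medians were not tested.

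The genes around tRNA charging were read from lists beside the family. In the uncharged tRNA sensing list, edgeR called 0 of 7 genes, beside 6.62% of all genes. DESeq2 called 1, EIF2AK4, beside 10.7% of all genes, and edgeR with the replicate block called 1, ATF4, beside 10.5%. At an unadjusted p under 0.05 there was 1 gene of the list, beside 22.3% of all genes. The median log2 fold change of the list was 0.11. EIF2AK4, the GCN2 kinase, was at 145.0 to 153.8 CPM with miR-101 and at 168.5 to 179.4 CPM in controls, without overlap, with a log2 fold change of -0.24 ± 0.084 (edgeR adjusted p = 0.128; DESeq2 adjusted p = 0.0230; 0.414 by edgeR with replicates 1 and 2 summed). ATF4 was at 247.1, 277.9, 381.4 and 346.1 CPM with miR-101 and at 188.9, 202.2, 249.4 and 316.8 CPM in controls, with the miR-101 library the higher in each numbered pair. Its log2 fold change was 0.39 ± 0.185 (95% interval -0.02 to 0.79; edgeR adjusted p = 0.248, 0.0457 with the replicate block and 0.455 with replicates 1 and 2 summed).

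In the ATF4 amino acid response list, 0 of 28 genes rose and 1 fell by edgeR, beside 3.3% of all genes higher and 3.32% lower. Of the list, 3 genes had an unadjusted p under 0.05, beside 22.3% of all genes. The list had a median log2 fold change of 0.0031. With the replicate block 2 genes were called higher, CEBPB and ALDH1L2, and 1 lower, against 10.5% of all genes in either direction. The gene that fell was SLC7A11, which imports cystine (chr4:138164097-138242349). It was at 46.0, 44.1, 76.3 and 70.5 CPM with miR-101 and at 119.3, 118.6, 209.2 and 70.5 CPM in controls, so control replicate 4 stood at the level of the miR-101 libraries and the groups overlapped. The log2 fold change was -1.13 ± 0.298 (edgeR adjusted p = 0.0477, and 0.0268 with the replicate block). DESeq2 called it as well (DESeq2 adjusted p = 0.00334), beside 10.7% of all genes. The call was lost when any single library other than control replicate 4 was left out, with an adjusted p of up to 0.141 without miR-101 replicate 1, and at 0.226 with replicates 1 and 2 summed. The 3′ UTRs of 2 genes of this list hold the 8mer, SLC7A11 and DDIT4. DDIT4, an inhibitor of mTORC1 signalling, was at 178.0, 190.5, 193.7 and 117.5 CPM with miR-101 and at 197.2, 187.4, 104.8 and 44.3 CPM in controls, with a log2 fold change of 0.35 ± 0.373 (edgeR adjusted p = 0.627). The 2 values had opposite signs in the main fit, but the sign for DDIT4 was not settled (95% interval -0.47 to 1.17). With only libraries 1 and 2 of each group DDIT4 stood at -0.067, and with only libraries 3 and 4 at 1.06.
CEBPB, a partner factor of ATF4, was not called at 0.53 ± 0.183 (edgeR adjusted p = 0.116, 0.0309 with the replicate block and 0.339 with replicates 1 and 2 summed). ALDH1L2, a mitochondrial folate enzyme, was higher in 4 of 4 pairs at 0.60 ± 0.360 (edgeR adjusted p = 0.361, 0.0330 with the replicate block and 0.578 with replicates 1 and 2 summed). ASNS, the asparagine synthetase often used to read ATF4 activity, was at 0.08 ± 0.290 (edgeR adjusted p = 0.906). Over the 28 genes, 14 log2 fold changes were positive and 14 negative. Among the negative ones, EIF4EBP1 was at -0.33 ± 0.131 (edgeR adjusted p = 0.164) and SLC7A5 at -0.57 ± 0.267 (edgeR adjusted p = 0.240). In both, the groups did not overlap, as for 15.1% of all genes, and control replicate 4 was the high library.

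Charged transfer RNAs are carried to the ribosome by elongation factors. In that list edgeR called 0 of 6 genes higher and 1, EEF1A2, lower, beside 3.3% and 3.32% of all genes. EEF1A2 is a tissue-restricted form of elongation factor 1 alpha (chr20:63488012-63499322). It was at 54.0, 52.9, 58.6 and 45.5 CPM with miR-101 and at 107.2, 116.5, 68.8 and 126.9 CPM in controls, where replicate 3 was the low library but still above every miR-101 library. The log2 fold change was -0.99 ± 0.174 (95% interval -1.37 to -0.61; edgeR adjusted p = 0.00775). EEF1A2 was also called with the replicate block (edgeR adjusted p = 0.0157) and by DESeq2 (DESeq2 adjusted p = 1.07e-05). The call held when each library was left out in turn, at edgeR adjusted p up to 0.0317, and was lost with replicates 1 and 2 summed, at 0.0844. The common form EEF1A1 was at 2774 ± 312.2 CPM in controls and 2881 ± 188.1 CPM in miR-101 libraries (0.05 ± 0.111). EEF1B2, a subunit of the exchange factor that recharges elongation factor 1 alpha with GTP, was at 0.46 ± 0.128 (edgeR adjusted p = 0.0603, 0.0324 with the replicate block and 0.246 with replicates 1 and 2 summed). DESeq2 called EEF1B2 higher, with a DESeq2 adjusted p of 0.0190. The shares of all genes called in either direction were 10.7% by DESeq2 and 10.5% with the replicate block.

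In the other lists no gene was called by edgeR, beside 6.62% of all genes. DESeq2 called 1 gene there, TRNT1, beside 10.7% of all genes. Counts at an unadjusted p under 0.05 stand beside 22.3% of all genes. Of 4 mitochondrial charging partners, QRSL1 of the glutamine amidotransferase was at 0.06 ± 0.107 (edgeR adjusted p = 0.769), and MTFMT, which formylates the initiator methionyl-tRNA, was at -0.07 ± 0.112 (edgeR adjusted p = 0.776), with 0 genes at an unadjusted p under 0.05. Of 7 synthetase-like and editing genes, 2 had an unadjusted p under 0.05: PRORSD1P at 0.79 ± 0.230 (edgeR adjusted p = 0.0676), a pseudogene by name at 0.84 to 1.82 CPM, and DTD1, a deacylase that removes D-amino acids from transfer RNA, at -0.24 ± 0.088 (edgeR adjusted p = 0.134). Of 21 tRNA maturation and export genes, 3 had an unadjusted p under 0.05, 2 higher and 1 lower. The lower gene, XPO5, was at -0.33 ± 0.130 (edgeR adjusted p = 0.157). Its miR-101 library was the lower in each numbered pair, although the groups overlapped. TRNT1, which adds the CCA end to transfer RNAs, was at 0.32 ± 0.097 (edgeR adjusted p = 0.0734; DESeq2 adjusted p = 0.0248; 0.334 by edgeR with replicates 1 and 2 summed), and RPP38, of the RNase P that trims precursors, was at 0.51 ± 0.180 (edgeR adjusted p = 0.127).

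**Figure D5:**
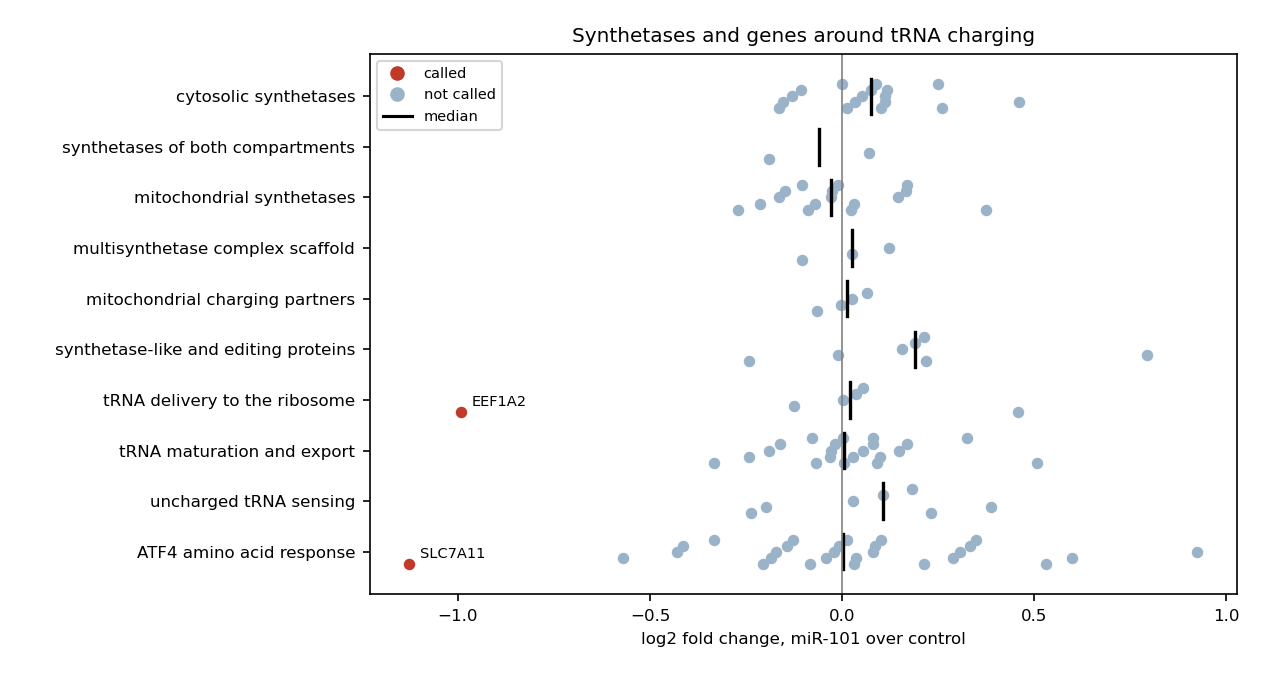
Log2 fold change, miR-101 over control, of every gene in the 3 synthetase groups and in the 7 lists around tRNA charging; red points passed an adjusted p of 0.05, blue points did not, and black bars are medians. The red points are EEF1A2 and SLC7A11, at -0.99 and -1.13, and the synthetases lie between -0.27 and 0.46.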

How the data were processed

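RNA-seq of 4 miR-101 and 4 control libraries was analysed. The deposited values are raw counts per gene, not normalised by the authors; per the submitters' processing notes, StringTie 1.2.4, TopHat2 2.0.14, bcl2fastq 2.18.0.12 and the hg38 build were used. Which tool counted reads, over which annotation and with or without strand, is not stated in the sources used here, so reads of overlapping genes cannot be told apart. Near-identical copies are a further limit: 11 members have named pseudogenes.

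Genes were tested with edgeR 4.0.16 (R 4.3.3, limma 3.58.1): filterByExpr, TMM, quasi-likelihood test on the group, Benjamini-Hochberg over 15905 genes. The script was tested on simulated data. Alternatives were other scalings, DESeq2 1.42.0, limma-voom, no filter, a replicate block, and subsets of libraries. Total counts of 17603054 to 20160267 set the counting error. Of 15982 symbols, 14040 matched GENCODE 29 by name.

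The members and lists were chosen with earlier results of these data known. Counts, sums and medians cover all 35 members, of which 1 is not reported here by itself. The others were named or counted, with values in every library for the 4 smallest p, the 3 highest and 3 lowest levels per length, and pairs of opposite sign differing by over 0.3; in other lists, called genes or up to 2 with the smallest p. RARS2, GARS, KARS, EPRS, LARS, LARS2, EEF1E1, EEF1A1, EEF1B2, ASNS, CEBPB, ALDH1L2, DDIT4, EIF4EBP1, SLC7A5 and XPO5 were added with their values known. Libraries of the same number deviated together from their group means (r across genes 0.38, 0.53, 0.20 and 0.20), and the labels number 4 transfection experiments, so the numbers were taken as pairing the libraries. Some libraries correlated as well or better with another number: miR-101 1 with control 2 (0.46), miR-101 2 with control 1 (0.44) and miR-101 4 with control 3 (0.44).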

Additional observations from a re-analysis of the deposited data

Results flagged for a closer look

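MARS2, the mitochondrial methionine enzyme, had a low library among the controls: 18.7 CPM in control replicate 3, against 22.6 to 23.3 CPM in the other control libraries, a gap of 0.837 of the group's range, above the 95% critical value of Dixon's test. Among the 76 groups of 4 values examined this was the only such gap, and chance alone gives about 1 in 20. Those groups did not cover every gene named here. SLC7A5, for example, was at 30.7 CPM in control replicate 4 and at 12.5 to 14.8 CPM in the other control libraries.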

How the results depend on the processing

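Over the 18 alternatives, 584 of the 630 values for single synthetase genes kept their direction and side of the threshold, and 37 changed sign, in 14 genes and with a size of at most 0.158. The exceptions to the absence of calls were the 9 genes called in replicates 1 and 2 alone (5 higher, 4 lower). The number of all genes called went from 1053 to 1714 with DESeq2, 1676 with the replicate block, 5126 in replicates 1 and 2 alone, 6 in replicates 3 and 4 alone, 173 with replicates 1 and 2 summed, and 488 to 1419 with each library left out in turn, the lowest without miR-101 replicate 1 and the highest without control replicate 4. The replicate block changed no synthetase call, and the causes of these shifts were not tested. Over the mitochondrial genes the median log2 fold change was 0.035 from replicates 1 and 2 and -0.072 from replicates 3 and 4. Sign changes under other settings were, as log2 fold changes: WARS, -0.0024 with RLE factors, -0.0025 with DESeq2, -0.00030 without the filter; HARS2, 0.014 with upper-quartile factors; FARSB, -0.00083 with total counts. In replicates 1 and 2 alone WARS was at -0.16, YARS at -0.045, EARS2 at 0.024, MARS2 at 0.087, SARS2 at 0.053 and WARS2 at 0.023. In replicates 3 and 4 alone KARS was at -0.0049, AARS2 at -0.060, HARS2 at 0.076 and IARS2 at -0.0087. With replicates 1 and 2 summed AARS2 was at -0.00043 and HARS2 at 0.016. Leaving out each library in turn gave -0.12 to 0.0032 for FARS2, -0.019 to 0.064 for IARS2, -0.096 to 0.079 for WARS, -0.068 to 0.049 for HARS2, -0.14 to 0.027 for MARS2, -0.057 to 0.0095 for WARS2, -0.075 to 0.064 for FARSB, -0.030 to 0.12 for MARS, -0.017 to 0.068 for NARS and -0.025 to 0.15 for AARS2. Depth limits CARS and SARS2 most, at under 5 CPM in every library. The principal transcript length was an alternative chosen after seeing the data.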
